A study of Mus musculus with 6 samples.

Results

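The transcripts of 10 mouse germline genes were examined in retinae that lacked Rb1 and p107, with or without Hells. The genes were Dazl, Ddx4, Mael, Sycp1, Sycp3, Tex101, Slc25a31, Asz1, Stk31 and Hormad1, taken as the rows of the deposited count table that carry these symbols, and all 10 were found among its 24062 genes. RNA-seq libraries were made from the retinae of mice labelled as strain C57BL/6 (a C57BL/6N background in the study's methods) at postnatal day 21 (P21). The triple knockout (TKO) carried Chx10-Cre with floxed Rb1, a constitutive loss of p107 and floxed Hells, and the double knockout (DKO) carried the same alleles apart from floxed Hells, with 3 retinae in each group. Both groups therefore lacked p107 in each cell and Rb1 in the cells where Cre had acted. Chx10-Cre is driven by a retinal progenitor promoter and is expressed in a mosaic, so each retina also held cells that kept Rb1 and, in the TKO, Hells. Mice of both sexes were used. No retina with intact Rb1 and p107 was compared here.

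These genes are needed in the germ line, where they build the synaptonemal complex, guard the genome against transposons through piRNAs and regulate germ cell mRNAs. In somatic cells their CpG-rich promoters are methylated early in development and stay silent. HELLS is a chromatin remodeler that opens nucleosomal DNA to the DNA methyltransferases, and its loss in other cell types is known to leave such promoters less methylated. A second layer of silencing uses the PRC1.6 complex, in which E2F6 binds the core TCCCGC and the MGA and MAX partners bind the E-box CACGTG. The comparison of TKO with DKO therefore asks whether the germline genes were transcribed in retinae when Hells was removed.

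The promoters were read from RefSeq (GRCm38.p6) as windows from 250 bases before to 50 bases after the annotated start, 300 bases in all, and 10 of 10 genes had a window. The windows held 15 to 38 CpG dinucleotides with a median of 23, against a median of 7 over 27025 genes with a window. The E-box CACGTG was present in 7 of the 10 windows (70.0%), against 7.24% of all windows and 11.5% of the 9514 windows with at least 15 CpG. The core TCCCGC, read on both strands, was present in 6 of the 10 (60.0%), against 20.0% of all windows and 45.2% of those with at least 15 CpG. No E-box overlapped a core in these windows. Both motifs were held by 6 of the 10, namely Ddx4, Mael, Sycp1, Sycp3, Slc25a31 and Hormad1. The share was 2.05% of all windows and 5.08% of those with at least 15 CpG. Among the other germline genes compared below, 2 of 19 windows (10.5%) held the E-box. Stk31 held the E-box without the core, and Dazl, Tex101 and Asz1 held neither. The Tex101 window (chr7:24672001-24672300, minus strand) lies inside the GENCODE gene (24668007 to 24676675), so RefSeq and GENCODE place its start differently. The E-boxes lay from 20 bases (Hormad1) to 223 bases (Mael) upstream of the start at their first base, and Sycp3 and Hormad1 had 2 each. A match of letters is a description and not a site of binding.

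**Figure D1:**
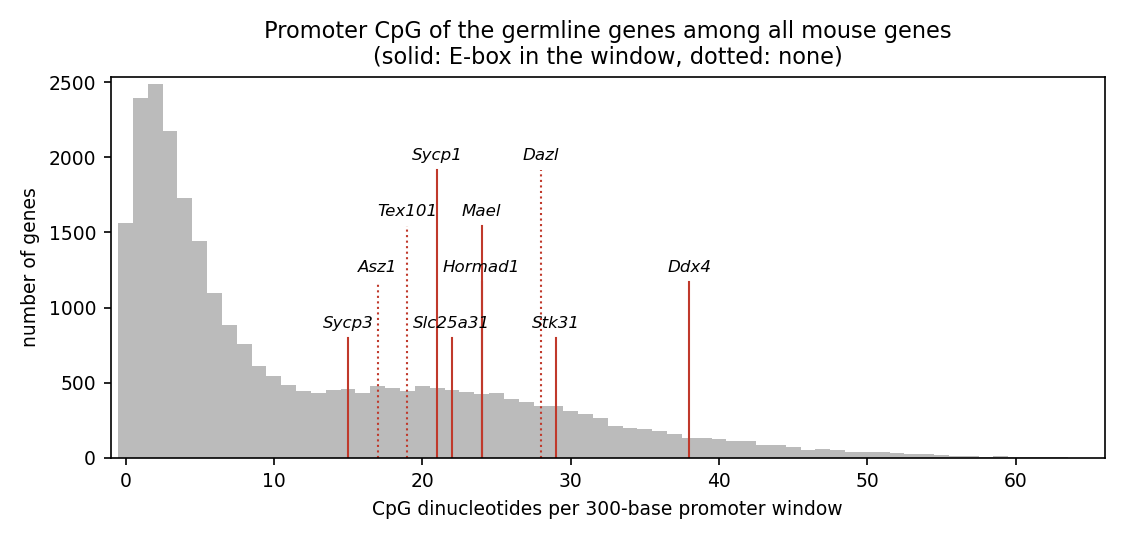
CpG dinucleotides per 300-base promoter window (horizontal axis) against the number of mouse genes with that value (vertical axis, grey bars). Red lines mark the 10 germline genes, solid with and dotted without an E-box, and their heights only separate the names. The 10 genes lie between 15 (Sycp3) and 38 (Ddx4) CpG, to the right of the peak of the grey bars, and Hormad1 shares the line of Mael at 24.

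The stretches upstream of the start are shown for 5 genes, the 3 tested genes with the largest fold difference between the groups (Sycp1, Sycp3 and Stk31) and the 2 without a count in any library (Hormad1 and Asz1). They cover chr3:102936101-102936350 (minus strand), chr10:88459337-88459568 (plus strand), chr6:49395289-49395538 (plus strand), chr3:95559427-95559676 (plus strand) and chr6:18109062-18109311 (minus strand) of GRCm38.p6, end where an annotated exon begins, and are written 5′ to 3′ on the gene's strand. Capitals mark the E-box CACGTG and the core TCCCGC or its reverse complement GCGGGA. Sycp1 holds 1 E-box, 94 bases before the start, and its core lies downstream of the stretch. Sycp3 and Hormad1 hold 2 E-boxes and 1 core each, Stk31 holds 1 E-box, and Asz1 holds no capitals.
Sycp1: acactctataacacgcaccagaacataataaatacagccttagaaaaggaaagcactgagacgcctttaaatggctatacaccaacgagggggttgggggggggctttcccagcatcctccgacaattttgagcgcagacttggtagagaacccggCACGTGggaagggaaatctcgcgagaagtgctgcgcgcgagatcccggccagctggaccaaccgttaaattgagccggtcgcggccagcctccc
Sycp3: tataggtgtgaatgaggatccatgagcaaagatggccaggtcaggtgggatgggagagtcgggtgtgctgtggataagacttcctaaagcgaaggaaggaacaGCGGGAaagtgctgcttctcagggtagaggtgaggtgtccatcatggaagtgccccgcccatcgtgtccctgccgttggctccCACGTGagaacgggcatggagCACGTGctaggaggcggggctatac
Stk31: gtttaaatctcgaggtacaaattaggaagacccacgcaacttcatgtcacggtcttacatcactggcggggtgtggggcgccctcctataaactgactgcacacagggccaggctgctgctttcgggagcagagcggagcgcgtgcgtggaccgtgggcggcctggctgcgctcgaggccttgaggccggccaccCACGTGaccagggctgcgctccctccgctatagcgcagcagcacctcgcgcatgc
Hormad1: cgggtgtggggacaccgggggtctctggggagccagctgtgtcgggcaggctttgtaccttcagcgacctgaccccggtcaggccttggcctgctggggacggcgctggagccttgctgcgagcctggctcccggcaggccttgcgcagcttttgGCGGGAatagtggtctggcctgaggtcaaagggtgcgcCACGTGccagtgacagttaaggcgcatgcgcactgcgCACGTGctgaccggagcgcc
Asz1: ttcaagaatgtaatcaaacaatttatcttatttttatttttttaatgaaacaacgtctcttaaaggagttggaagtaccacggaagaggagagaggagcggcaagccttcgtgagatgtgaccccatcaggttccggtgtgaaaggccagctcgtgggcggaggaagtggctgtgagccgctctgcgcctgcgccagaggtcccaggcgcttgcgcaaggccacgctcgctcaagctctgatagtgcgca

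The libraries summed to between 10343907 and 14203098 counts, so a count of 0, which allows up to 3 counts, left room for 0.211 to 0.290 CPM (counts scaled to a library of fixed size). Such limits and the intervals of ratios below cover counting error only. Values are given below in the order of replicates 1, 2 and 3, and fold changes are TKO over DKO. Hells, the targeted gene, had 53, 65 and 68 counts in the TKO against 720, 597 and 457 in the DKO, and the groups did not overlap. The change was -2.91 on the log2 scale, with a standard error (SE) of 0.225 (edgeR adjusted p = 0.00359). Rb1 had 556 to 710 counts in the TKO and 656 to 666 in the DKO (0.34 on the log2 scale, edgeR adjusted p = 0.0388), and Rbl1 (p107) had 11 to 24 and 16 to 28. Counts on the 3 genes include exons outside the deleted part, so they do not check the deletions. The 12 undeleted markers of dividing cells also fell, with log2 changes from -3.21 to -1.27 and a median of -2.57. With the replicate number as a block, Hells kept its call (edgeR adjusted p = 0.0404) and 0 of the 12 did. The largest edgeR adjusted p of each of the 12 over all alternatives lay between 0.0566 (Plk1) and 0.0719 (Mki67), close to the threshold. The labels do not pair same-numbered retinae, so this fit does not set Hells apart from the 12. The rod markers Gnat1, Pde6b, Pde6a, Nrl, Nr2e3, Sag, Cnga1, Rp1 and Rcvrn were present in each library and all 9 were higher in the TKO. The number called was 6 without TKO replicate 2, 5 without DKO replicate 1, 4 without DKO replicate 2 and 0 with the replicate number as a block. Gnat1, the rod transducin subunit, had 137781, 138720 and 66364 counts in the TKO against 28283, 31893 and 61463 in the DKO, or 1.84 on the log2 scale (SE 0.335, edgeR adjusted p = 0.0114). The 10 lens markers (4 higher in the TKO) summed to 51.5, 291 and 44.2 CPM in the TKO and to 9.08 to 10.2 in the DKO, with 1 called without DKO replicate 1 or DKO replicate 2. Markers of retinal pigment epithelium (2 of 8 higher in the TKO) summed to 610 to 806 CPM in the TKO and 361 to 484 in the DKO, and those of microglia (4 of 8 lower) to 117 to 199 and 213 to 339. Most pigment epithelium counts were of Rlbp1 alone (7831, 7652 and 5664 in the TKO against 4561, 5407 and 5930), called with Rpe65. Best1, Mitf and Pmel had -0.033, 0.028 and 0.18 on the log2 scale. Ttr, Lrat and Tyr had 1.24, 0.97 and 1.00, and none of these passed the test. The sum is therefore mainly a value of Rlbp1. The pigment epithelium count was 1 without TKO replicate 1, TKO replicate 2, DKO replicate 1 or DKO replicate 2. The microglia count was 0 when TKO replicate 2 or DKO replicate 2 was left out, 2 when TKO replicate 1 was and 1 when DKO replicate 1 was, and both counts were 0 with the block. Markers of dividing cells are given with the meiotic genes, and the part of these cell types in the values of the germline genes was not tested. In bulk retinae, fewer cells of a type and less RNA per cell cannot be told apart.

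Most of the 10 germline genes were at or near the limit of detection in both genotypes. Together they had 73, 54 and 61 counts in the TKO against 64, 71 and 62 in the DKO, which is 4.49 to 6.62 CPM in the TKO and 4.23 to 4.91 CPM in the DKO. The groups overlapped in this sum. A median gene of the table had 57 to 100 counts in a library. A count above 3 was reached by 4 or 5 of the 10 genes in a TKO library and by 3 or 4 in a DKO library, against 65.1% to 67.5% of all genes. Only Dazl and Ddx4 exceeded 3 counts in each of the 6 libraries (20.0%, against 62.3% of all genes). Asz1 and Hormad1 had 0 counts in all 6 libraries, a share of 20.0% that is also that of the whole table (19.9%).

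**Figure D2:**
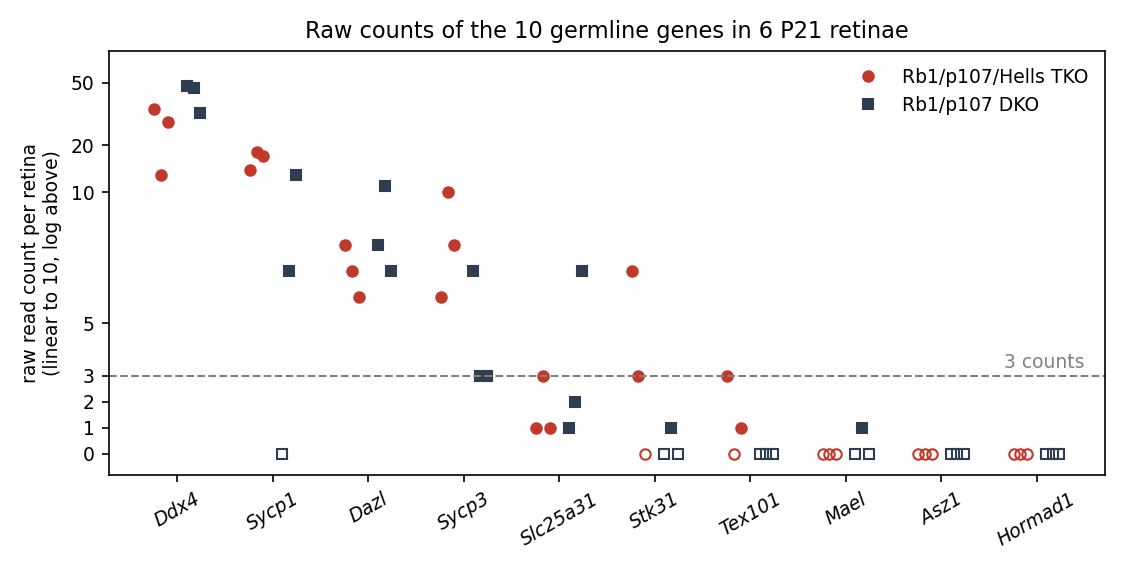
Raw read counts of the 10 germline genes (vertical axis, linear to 10 and logarithmic above) in 3 TKO retinae (red circles) and 3 DKO retinae (dark squares), with genes ordered by total count. Open symbols are counts of 0 and the dashed line is at 3 counts. Ddx4 has the highest counts, Sycp1 and Sycp3 tend to lie higher in the TKO, and the 4 genes at the right stay at or below 3 counts in each retina.

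A sum of at least 10 counts over the 6 libraries, the filter of the study's methods, was passed by 6 of the 10 genes, namely Ddx4, Sycp1, Dazl, Sycp3, Slc25a31 and Stk31. None of the 6 was called higher or lower in the TKO at an adjusted p of 0.05 (edgeR's quasi-likelihood test with Benjamini-Hochberg adjustment over 16904 genes). In the same test 7.35% of all genes were higher and 9.20% lower in the TKO (16.6% either way), and a count of 0 among 6 genes lies close to that background. Under the further criteria of the study (a change of 1 or more on the log2 scale in either direction and a normalized mean of 10 or more), 1.97% of all genes were higher, 4.40% lower and 0 of the germline genes were called. DESeq2 also called 0, but it gave no adjusted p for Stk31, which it could not call. At an unadjusted p of at most 0.05 there was 1 of the 6 (Stk31) with edgeR and 1 (Sycp1) with DESeq2, against 33.1% of all genes with edgeR. The log2 fold changes of the 6 were -0.61 (Slc25a31), -0.38 (Ddx4), 0.042 (Dazl), 1.20 (Sycp3), 1.64 (Sycp1) and 3.21 (Stk31). Their median was 0.62, against -0.011 over all genes tested. A gene with few counts passes the filter only through the group where it is high. Stk31 passed through the TKO, so the median of 0.62 is not read as a shift of the germline genes.

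Among the RNA-binding regulators of germ cells, Ddx4 (also known as vasa or Mvh) encodes a DEAD-box helicase of germ granules and lies on chromosome 13 from 112598333 to 112652475. It had 34, 13 and 28 counts in the TKO against 48, 46 and 32 in the DKO. TKO replicate 2 was the lowest, and the normalized counts of the groups overlapped. They were 29.0 ± 13.5 in the TKO and 37.7 ± 9.05 in the DKO (SD, n = 3 each). The difference was -0.38 on the log2 scale (SE 0.397, 95% interval -1.29 to 0.53, edgeR adjusted p = 0.539). It was -0.036 without TKO replicate 2 and -0.66 without TKO replicate 1. Ddx4 was also the most abundant of the 10 by exon length, at 0.761 ± 0.353 RPKM (counts per kilobase of exon, scaled as CPM) in the TKO and 0.988 ± 0.237 in the DKO, above 43.1% of the genes with a length.

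Dazl, a translational regulator that germ cells need to enter meiosis, lies on chromosome 17 from 50279395 to 50293636. It had 8, 7 and 6 counts in the TKO and 8, 11 and 7 in the DKO, and the groups overlapped fully. The difference was 0.042 on the log2 scale (SE 0.407, 95% interval -0.89 to 0.98, edgeR adjusted p = 0.953). The interval leaves room for changes of nearly 1 on the log2 scale in either direction, and with total counts as the scaling the difference was -0.12.

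Stk31, which encodes a Tudor-domain kinase of germ cells, lies on chromosome 6 from 49395604 to 49469501. It had 7, 3 and 0 counts in the TKO against 0, 1 and 0 in the DKO. A single TKO retina exceeded 3 counts, and TKO replicate 3 had none. The summed counts, 10 against 1, gave a ratio of 12.8 after normalization, with an exact conditional 95% interval of 1.81 to 554. The fitted value of 3.21 on the log2 scale (SE 1.38, edgeR adjusted p = 0.148) depends on the prior count of the fit. Without TKO replicate 1 or TKO replicate 2 the gene fell under the filter of 10 counts and was not tested.

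Of the genes for meiotic chromosome structure, Sycp1 encodes the transverse filament of the synaptonemal complex and lies on chromosome 3 from 102818499 to 102936100. It had 14, 18 and 17 counts in the TKO and 0, 7 and 13 in the DKO. Each TKO retina was above each DKO retina, and the DKO retinae differed among themselves from none to nearly the TKO level. The normalized counts were 18.6 ± 2.42 and 5.78 ± 5.62 (SD, n = 3 each). The difference was 1.64 on the log2 scale (SE 0.721, 95% interval -0.0099 to 3.29, edgeR adjusted p = 0.153, DESeq2 adjusted p = 0.138). The summed counts, 49 against 20, gave a ratio of 3.13 after normalization (exact conditional 95% interval 1.82 to 5.55). The log2 difference ran from 1.09 without DKO replicate 1, the library at 0, to 2.52 without DKO replicate 3 (edgeR adjusted p = 0.166 and 0.0657).

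Sycp3, an axis protein of the same complex, lies on chromosome 10 from 88459569 to 88473236. It had 6, 10 and 8 counts in the TKO and 7, 3 and 3 in the DKO. Normalized for library size, the lowest TKO value of 6.88 was just above the highest DKO value of 6.59, and the groups did not overlap. The difference was 1.20 on the log2 scale (SE 0.524, 95% interval -0.0008 to 2.40, edgeR adjusted p = 0.151). The summed counts, 24 against 13, gave a ratio of 2.35 (exact conditional 95% interval 1.15 to 5.04). Sycp3 shares 660 bp of annotated exon with Chpt1 on the opposite strand, and the strand setting of the counting is not given, so reads of the pair may not be separated. Chpt1 had 151, 175 and 132 counts in the TKO and 184, 222 and 165 in the DKO. Sycp1 and Sycp3 were the 2 of 6 tested germline genes whose groups did not overlap, both higher in the TKO, where 18.0% of all genes tested were higher without overlap.

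Hormad1, a HORMA-domain protein that marks unsynapsed axes, lies on chromosome 3 from 95559677 to 95587671 and had 0 counts in each of the 6 libraries. Its level thus had an upper limit of 0.211 to 0.290 CPM per library, and a change was not detectable at this depth. The 3 genes of meiotic chromosome structure therefore ran from undetected (Hormad1) to 0.414 ± 0.0538 RPKM (Sycp1, TKO), and 0.567 ± 0.121 RPKM (Sycp3, TKO). In the DKO, Sycp1 was at 0.129 ± 0.125 and Sycp3 at 0.246 ± 0.144 RPKM (SD, n = 3 each), and the spreads of both genes overlapped.

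The 2 piRNA genes had at most 1 count. Mael, which encodes a nuage protein that represses transposons, lies on chromosome 1 from 166201201 to 166238747 and had 1 count, in DKO replicate 2, and none in the other 5 libraries. Asz1, a mitochondrial scaffold of the piRNA machinery on chromosome 6 from 18050964 to 18109061, had none in any library. No fold is given for either gene, since both groups were within the limit of 3 counts.

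Of the genes with roles in sperm, Slc25a31, the germline adenine nucleotide translocator Ant4, lies on chromosome 3 from 40708855 to 40726096. It had 1, 3 and 1 counts in the TKO and 1, 2 and 7 in the DKO, and only DKO replicate 3 exceeded 3 counts. The summed counts of 5 and 10 gave a ratio of 0.638 (exact conditional 95% interval 0.171 to 2.05), and edgeR gave an adjusted p of 0.669. Tex101, a surface glycoprotein of germ cells on chromosome 7 from 24668007 to 24676675, had 3, 0 and 1 counts in the TKO and 0 in the 3 DKO libraries. Each library was within the limit of 3 counts, so no fold is given.

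As a measure of germ cell RNA, the 5 late germ cell transcripts Prm2, Tnp1, Tnp2, Smcp and Akap4 had 0 counts in each library, Odf1 and Ldhc had 1 count in all, and Prm1 had 1 to 3 counts per library. Gapdhs and Oaz3 had 82 to 120 and 47 to 90 counts. These 3 of the 10 on this list passed the filter and none was called. Among the genes whose values followed Ddx4 most closely were Slc9a9 and Utp15, with a Pearson r of 0.988 and 0.986 over 6 libraries among 15012 genes. These are among the highest of many correlations over few libraries and are given as a description.

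Other germline genes, chosen for their known methylation in somatic cells, were next compared. Of 28 such genes, 11 had 0 counts in all libraries and 12 passed the filter. None of the 12 was called higher and 1 was called lower in the TKO, near the shares over all genes (7.35% and 9.20%). The latter was Dmrtb1, a DM-domain factor of spermatogonia. It had 7, 8 and 7 counts in the TKO and 20, 27 and 20 in the DKO, without overlap, a difference of -1.24 on the log2 scale (SE 0.333, edgeR adjusted p = 0.0385). The call was lost with DESeq2 (adjusted p = 0.11) and without any 1 of TKO replicates 1, 2 and 3 or DKO replicates 1 and 2, where 0 genes were called. The median of the 12 was -0.015. Brdt, a bromodomain protein of spermatids and the most abundant of the list, had 122, 142 and 109 counts in the TKO and 157, 176 and 156 in the DKO, or -0.044 on the log2 scale. Tex15 and Tex14 followed in abundance, with -0.55 and 0.56, and did not pass the test.

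Of 17 piRNA pathway genes apart from Mael and Asz1, 15 passed the filter, 1 rose and 1 fell in the TKO, near the shares over all genes (7.35% and 9.20%), and their median was -0.032. Tdrd7 rose, a Tudor-domain gene that is also expressed in lens, with 4067, 3485 and 2161 counts in the TKO and 1239, 1485 and 1942 in the DKO. The groups did not overlap, and the difference was 1.41 on the log2 scale (SE 0.211, edgeR adjusted p = 0.00733). The summed lens markers and the rod markers were also higher in the TKO, as given above, and their part in the result was not tested. Piwil4, a nuclear PIWI protein, fell, with 5, 9 and 7 counts against 27, 25 and 17, or -1.36 on the log2 scale (SE 0.385, edgeR adjusted p = 0.0458). That call was lost with DESeq2 and without any 1 of TKO replicates 1, 2 and 3 or DKO replicates 1 and 2, where 0 genes fell. Tdrkh and Tdrd9, with Tdrd7 the most abundant of the list, had 0.070 and 0.064 and did not pass the test.

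Of 24 further genes for meiotic chromosomes and recombination, 22 were in the table and 18 passed the filter. In the TKO 6 fell and 1 rose, against 9.20% and 7.35% of all genes, and the median log2 fold change was -0.88. Dmc1, the meiotic recombinase, had 17, 21 and 20 counts in the TKO and 103, 84 and 65 in the DKO. Each TKO retina was far below each DKO retina, a difference of -1.77 on the log2 scale (SE 0.278, edgeR adjusted p = 0.00815). Ccdc36 (Iho1), which promotes meiotic double-strand breaks, fell by 1.96 on the log2 scale, from 83, 70 and 42 counts in the DKO to 13, 9 and 17 in the TKO. Mei1, needed for break formation, fell by 1.28, and the cohesin subunits Smc1b and Stag3 fell by 1.14 and 0.96. Syce2, a central element protein of the synaptonemal complex, fell by 0.98. Prdm9, which marks recombination hotspots, rose by 1.14, with 314, 221 and 160 counts in the TKO and 152, 92 and 155 in the DKO.

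Single retinae set how many meiotic genes fell, and with the replicate number as a block 0 did. The count was 3 without TKO replicate 1 and 1 without TKO replicate 2, without DKO replicate 1 or without DKO replicate 2. It was 7 without TKO replicate 3 and 8 without DKO replicate 3. Among the fits with 1 retina left out, Prdm9 kept its call only without TKO replicate 3 or DKO replicate 3. Over all 14 alternatives it kept the call in 9. Markers of dividing cells moved in the same direction as these genes. All 12 of Mki67, Top2a, Ccnb1, Ccna2, Cdk1, Aurkb, Birc5, Bub1, Plk1, Mcm6, Pcna and E2f1 fell, their summed level was 168 to 391 CPM in the TKO and 756 to 1410 in the DKO, and none was at 0. The number called was 6 without TKO replicate 2, 8 without DKO replicate 1 or DKO replicate 2 and 0 with the block. Their part in the result was not tested. The core TCCCGC was present in 13 of the 21 promoter windows of the meiotic list (61.9%) and in 5 of the 10 of the dividing cell list. The E-box was present in 3 of the 21 (14.3%) and in 0 of the 10. Over all windows the core was present in 20.0% and the E-box in 7.24%, and in 45.2% and 11.5% of those with at least 15 CpG.

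**Figure D3:**
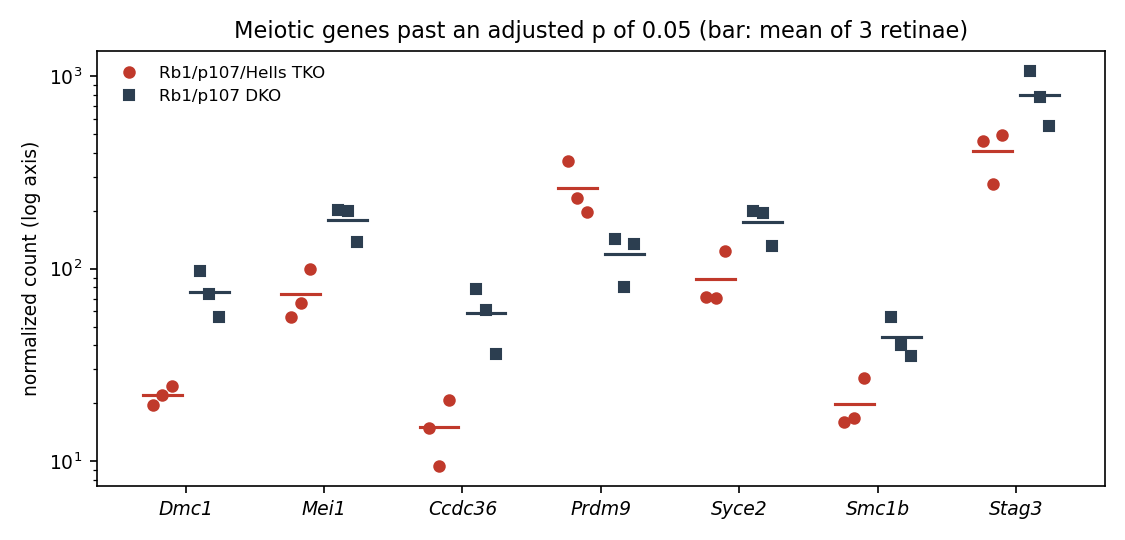
Normalized counts (logarithmic vertical axis) of the 7 meiotic genes past an adjusted p of 0.05 in 3 TKO (red circles) and 3 DKO retinae (dark squares), with bars at the means. In each of the 7 genes the groups are separate, and among them Prdm9 alone lies higher in the TKO, at a mean of 263 against 119.

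The genes that silence germline promoters were measured with far larger counts. Of 18 PRC1.6, SETDB1 and G9a genes, all passed the filter, 2 rose and 3 fell in the TKO, against 7.35% and 9.20% of all genes, with a median of -0.12. Max and Rybp rose by 0.36 and 0.28 on the log2 scale, and Hdac2, Trim28 and Hdac1 fell by 0.48, 0.34 and 0.33. Cbx3 and Ehmt2 (G9a), with Trim28 the most abundant of the list, had -0.28 and -0.15 and did not pass. Scaling by total counts alone put the median over all genes at -0.17, and none of the list then rose. E2f6 had 498, 776 and 647 counts in the TKO and 799, 754 and 1266 in the DKO, or -0.20 on the log2 scale, and did not pass the test. Mga, at 0.35, did not pass either (edgeR adjusted p = 0.091). Without TKO replicate 1, TKO replicate 2, DKO replicate 1 or DKO replicate 2, none of the 18 was called in either direction.

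In the DNA methylation machinery, 4 of 10 genes, Hells among them, fell and 1 rose in the TKO, against 9.20% and 7.35% of all genes. Uhrf1, which brings the maintenance methyltransferase to hemimethylated DNA, had 71, 184 and 328 counts in the TKO and 1662, 1518 and 939 in the DKO, or -2.46 on the log2 scale (SE 0.477, edgeR adjusted p = 0.0134). Cdca7, the partner of HELLS, fell by 2.24, and Dnmt1, the maintenance methyltransferase, fell by 0.72, with 1454, 1655 and 1868 counts against 3833, 3513 and 3127. Tet3, which oxidises methylcytosine, rose by 0.75. Dnmt3a and Dnmt3b, the de novo enzymes, had 0.25 and -0.34 and did not pass the test. Without TKO replicate 2, DKO replicate 1 or DKO replicate 2, only 1 gene of the list fell and none rose. The 12 dividing cell markers fell in the same retinae, and their part in these values was not tested.

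**Figure D4:**
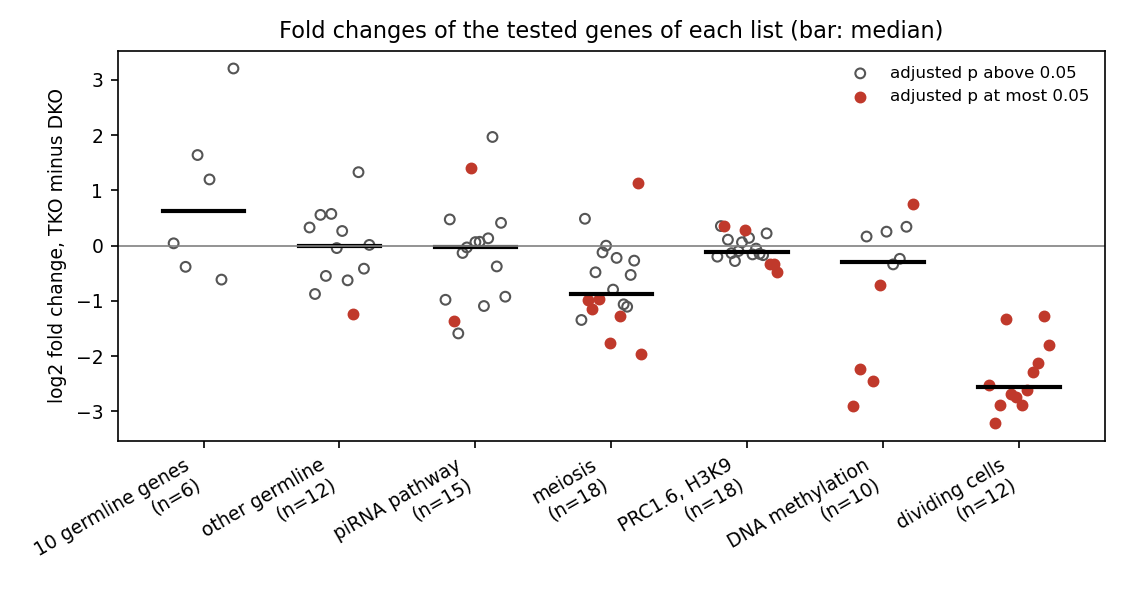
Log2 fold change of TKO minus DKO (vertical axis) for each tested gene of 7 lists, with filled symbols for an adjusted p of at most 0.05 and bars at the medians. The 6 tested of the 10 germline genes have no filled symbol, and their median of 0.62 includes Stk31, which passed the filter through the TKO. The meiotic list has a median of -0.88, and the dividing cell list has a median of -2.57.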

How the data were processed

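RNA-seq counts were analysed from 3 TKO and 3 DKO P21 retinae, grouped by their titles. The deposited values are raw counts per gene symbol, without normalization. Per the methods, the authors used STAR on GRCm38, with up to 3 alignments per read, and HTSeq for counting, whereas the submitters' processing notes name TopHat2, featureCounts and DESeq2 with mm10 and GRCm38. The strand setting is not given in the sources used here. Nothing in the labels names the animals, so p-values measure the spread between these samples.

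Genes with a sum under 10 were removed, and TKO was compared with DKO with edgeR 4.0.16 in R 4.3.3 (TMM, quasi-likelihood F test, Benjamini-Hochberg over 16904 genes, adjusted p of at most 0.05). Normalized counts were divided by each library's TMM-scaled size over the mean size. Each SE was the size of the log2 change over the root of F, with 95% intervals from the fit's t distribution. Genes were named by a rule, namely all 10 genes, Hells, Rb1 and Rbl1, the 3 most abundant and the called genes of each list, and the 3 genes most like the most abundant member. Genes outside it (E2f6, Mga, Dnmt3b, Odf1, Ldhc, Chpt1 and Mov10l1 among them) were chosen after their values were seen. Coordinates, exon lengths and overlaps come from GENCODE M21 on GRCm38, where 22708 of 24062 symbols matched 1 gene. Levels between genes are compared as RPKM on exon lengths. Some genes that this rule or the lists named are not reported here. The script was tested on simulated data. The genes and lists were chosen with earlier results of these data known. The alternatives were DESeq2 1.42.0, 3 other scalings, other filters, robust dispersion, the replicate number as a block, and each retina left out.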

Additional observations from a re-analysis of the deposited data

How the results depend on the processing

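Across the alternatives, 0 of the germline genes were called higher and 0 lower, with 2 to 8 of the 10 tested. Their adjusted p ran from 0.0657 to 0.299 for Sycp1, 0.107 to 0.36 for Sycp3, 0.0503 to 0.298 for Stk31 and 0.367 to 0.953 for Ddx4. The range for Stk31 covers edgeR fits only, since DESeq2 gave it no adjusted p. Of the 10 members, 4 had at least 1 count in each library, 2 more than 3 and 1 at least 10. Dazl changed sign, to -0.12 on the log2 scale with total counts only, and without TKO replicate 1 or DKO replicate 3, and ran from -0.11 to 0.23 with 1 retina left out, with an adjusted p of at least 0.806 in edgeR and DESeq2. The log2 fold change of Hells ran from -3.08 to -2.69.

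Over all genes, 1243 were higher and 1556 lower in the TKO. With total counts only there were 778 and 2610, with the study's fold and mean criteria 333 and 743, and with 1 retina left out 214 to 1617 and 404 to 1973. With the replicate number as a block there were 24 and 82, with 0 calls among the germline, piRNA, meiotic and repressor genes and 1, lower, in the methylation machinery. The deviations of same-numbered retinae correlated at 0.0662, -0.0567 and -0.23. The labels do not say what same-numbered retinae share, and these correlations cannot settle it. The block fit also has fewer residual degrees of freedom than the main fit. With DESeq2, 0 other germline and 0 piRNA genes were lower, and 1 repressor gene was higher with upper quartile and 0 with total counts scaling. With 1 retina left out, the higher and lower calls were 0 and 0 to 1 for other germline genes, 1 and 0 to 1 for piRNA, 0 to 1 and 1 to 8 for meiosis, 0 to 2 and 0 to 4 for repressors, and 0 to 1 and 1 to 4 for the methylation machinery. The causes were not tested. Depth left 4 members untested, which had fewer than 10 counts in all. It also limits the tested members, of which only Ddx4 had at least 10 counts in each library.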

Other observations

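Rec8, the meiotic kleisin, is one of the 3 most abundant genes of the meiotic list and was spread by retina more than by genotype. Its normalized counts were 51.6, 43.1 and 594 in the TKO against 100.7, 372 and 478 in the DKO, in the order of replicates 1, 2 and 3. The groups overlapped, and the difference was -0.48 on the log2 scale (SE 0.929, edgeR adjusted p = 0.754). Mov10l1, a helicase of piRNA biogenesis, had 6 counts in TKO replicate 1 and 0 in the other 5 libraries. Stk31 and Tex101 were also highest in TKO replicate 1, with 7 and 3 counts, and these genes were set side by side after their values had been seen.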
